A study of Mus musculus with 21 samples.

Results

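The IL-1 and IL-18 axis was represented on the counted panel by 10 genes of 770: the ligands Il1a, Il1b and Il18, the antagonist Il1rn, the receptor chains Il1r1, Il1rap, Il1r2 and Il18r1, and the inflammasome genes Nlrp3 and Casp1. They were taken by probe name from the raw count table, over 21 lung libraries of A/J mice, with 1 animal per library. Genes were included whether or not they reached the minimum of 87 raw counts that the study used, and their counts were set against the negative control probes of the same library. The mean raw count reached 87 for 6 of the 10 (Il1rn, Il1r1, Il1rap, Il18, Il18r1 and Casp1), which were among the 388 genes of the panel in the main test, and stayed under it for Il1a, Il1b, Il1r2 and Nlrp3. The lungs came from 5 HDE + NNK mice, 4 HDE only mice, 6 saline + NNK mice and 6 saline only mice.

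All mice were male and female animals of the A/J strain, an inbred strain prone to lung adenomas, received at 8 to 12 weeks of age. The HDE + NNK lungs came from 3 females and 2 males, and the HDE only lungs from 1 female and 3 males. Saline + NNK lungs came from 3 females and 3 males, and saline only lungs from 5 females and 1 male. Exposure and sex were therefore partly confounded, most of all without NNK. Sex was entered only in a fit that did not hold Il1a, Il1b, Il1r2 or Nlrp3. HDE, a dust extract, was made from dust settled in swine confinement buildings, extracted in an aqueous medium and filtered sterile. HDE mice were given 50 µL of extract at 12.5% into the nose, on 3 days of each week over 24 weeks, and saline mice were given phosphate-buffered saline in the same way. NNK, a nitrosamine carcinogen of tobacco, was injected into the peritoneum at 100 mg/kg at the start of week 4, and mice without NNK were injected with phosphate-buffered saline. Visible tumors were cut out of the left lung before RNA was taken, and the airways had been washed beforehand, so the RNA is that of lavaged lung tissue without the excised tumors. The comparisons asked how long exposure to the dust extract, with and without the carcinogen, altered transcript levels in the lung.

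As background, interleukin 1 alpha and interleukin 1 beta are early inflammatory cytokines that signal through the same receptor. That receptor is made of IL-1R1 and its accessory chain IL-1RAP, and it works through MyD88 and the IRAK kinases to NF-kB. The axis is restrained at the surface: the IL-1 receptor antagonist, product of Il1rn, occupies IL-1R1 without signalling, and IL-1R2 is a decoy receptor that captures IL-1. Pro-IL-1 beta and pro-IL-18 are cut to their active forms by caspase-1, which is activated in inflammasomes such as the one built on NLRP3, so the activity of this axis is set to a large extent at the protein level, which transcript counts do not measure. IL-18 is present as a precursor in epithelial cells and macrophages, and IL-18R1 is its binding chain. In the lung, IL-1 released by macrophages and epithelium is known for recruiting neutrophils.

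Library totals ran between 174604 and 529829 counts, and single negative control probes between 2 and 40 counts. The mean of the 8 negative controls plus 2 standard deviations, used here as the background limit of a library, lay between 13.1 and 43.7 counts. Libraries were read in 2 runs that held the groups unequally. Run 1 held 4 HDE + NNK, 2 HDE only, 4 saline + NNK and 2 saline only libraries, and run 2 held 1, 2, 2 and 4 libraries of the same groups. In the paper, mice of 2 successive experiments were combined, and control mice of the later one had ethanol in saline by tail vein. The experiment of each library is not named, and a difference by experiment or vehicle was not tested. The raw counts name the group but not the animal of a library, in the same group order as the deposited samples. If the animals follow that order, all HDE lungs of run 2 were male and all its saline lungs female. In that case sex and exposure cannot be told apart within run 2. The match of animals to libraries was not tested. The average of the negative controls was 24.3 counts in run 1 and 12.4 counts in run 2. Values given below as normalized counts are raw counts brought to a common level of 4 housekeeping genes (Eef1g, Oaz1, Rpl19, Sdha), averaged geometrically in each library. Probes differ in efficiency, so levels are compared between lungs for the same gene and not between genes. Libraries are named by run and cartridge lane. Saline only lane 3 of run 2 carried a quality mark of the instrument, and HDE only lane 12 of run 2 had the next lowest total, so results were also computed without both.

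The promoter windows of Il1rn, Casp1 and Il1a, which were higher in HDE lungs, and of Il1b for comparison with its neighbour Il1a, are shown first; those of Nlrp3 and Il18r1, which were also called, were searched in the same way and are not printed. All 10 members matched RefSeq on build GRCm38.p6, with 16 windows of 300 bases, each made of 250 bases before and 50 bases after an annotated start. The windows are those of the reference strain and not of A/J. Il1a and Il1b are next to each other on chromosome 2 and are both read from the minus strand. Capitals mark every match, on either strand, to TATAAA (the core promoter box bound by TBP), to TGANTCA (an AP-1 type sequence, N being any base) or to 3 G followed by 5 bases of any kind and 2 C (a loose NF-kB type sequence). Il1rn has 3 annotated starts, and the windows of the first and the last are shown, since the other overlaps the last.
Il1a, chr2:129309923-129310222, minus strand: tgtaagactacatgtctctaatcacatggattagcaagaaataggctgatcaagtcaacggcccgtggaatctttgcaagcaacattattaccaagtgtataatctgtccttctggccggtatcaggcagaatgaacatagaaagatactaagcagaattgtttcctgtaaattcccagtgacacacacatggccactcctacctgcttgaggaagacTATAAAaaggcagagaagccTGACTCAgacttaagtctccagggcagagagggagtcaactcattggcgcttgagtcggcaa
Il1b, chr2:129371090-129371389, minus strand: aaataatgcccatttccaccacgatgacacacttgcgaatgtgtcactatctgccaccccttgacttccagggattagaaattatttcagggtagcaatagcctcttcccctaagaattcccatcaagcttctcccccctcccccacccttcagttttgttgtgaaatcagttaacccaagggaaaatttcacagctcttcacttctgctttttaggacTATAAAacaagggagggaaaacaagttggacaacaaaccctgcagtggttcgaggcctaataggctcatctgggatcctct
Il1rn, first start, chr2:24336610-24336909, plus strand: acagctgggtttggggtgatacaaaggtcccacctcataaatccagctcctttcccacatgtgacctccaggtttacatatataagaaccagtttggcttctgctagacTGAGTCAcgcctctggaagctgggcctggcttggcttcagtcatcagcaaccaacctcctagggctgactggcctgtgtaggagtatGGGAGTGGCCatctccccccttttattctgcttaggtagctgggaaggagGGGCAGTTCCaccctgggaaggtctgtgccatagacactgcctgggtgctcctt
Il1rn, last start, chr2:24345121-24345420, plus strand: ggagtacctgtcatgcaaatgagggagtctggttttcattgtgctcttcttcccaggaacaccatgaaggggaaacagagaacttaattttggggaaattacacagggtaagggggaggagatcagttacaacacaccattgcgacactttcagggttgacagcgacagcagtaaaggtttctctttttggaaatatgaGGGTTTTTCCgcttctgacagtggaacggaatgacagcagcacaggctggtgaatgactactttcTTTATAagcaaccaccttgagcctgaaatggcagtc
Casp1, chr9:5298267-5298566, plus strand: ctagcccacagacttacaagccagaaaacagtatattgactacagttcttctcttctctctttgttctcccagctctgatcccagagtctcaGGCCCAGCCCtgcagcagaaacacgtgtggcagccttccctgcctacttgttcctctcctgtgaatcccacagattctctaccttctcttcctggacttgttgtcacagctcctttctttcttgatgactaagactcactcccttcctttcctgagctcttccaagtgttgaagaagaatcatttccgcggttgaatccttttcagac

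TATAAA was found 32 bases before the start in Il1a and 31 bases before it in Il1b, and it was present in 13.6% of all 32851 windows. Matches to it were also in the last Il1rn window and in Il18. Il1a also held the sequence TGACTCA 12 bases before its start, and the first Il1rn window held TGAGTCA 141 bases before its start, a sequence type present in 7.81% of all windows. The loose NF-kB type sequence was found in both Il1rn windows shown and in Casp1, and in 50.8% of all windows. Of the 10 members, 6 held it, including Nlrp3, Il18r1, which fell, and Il1r1 and Il1rap, which were not called. It was not found in the windows of Il1a or Il1b. The other sequences searched, on both strands, are not capitalised above. GAGGAA (an ETS type sequence, 28.3% of all windows) was in Il1a, Casp1, Il18r1 and Nlrp3. TTNNGNAA (a C/EBP type sequence, 40.7%) was in Il1a, Il1b, the last Il1rn window, Il1r1 and Nlrp3. TTTC repeated after 2 bases of any kind (an interferon-stimulated type sequence, 3.44%) was found only in Il1rap among the 10 members. In Il1a the GAGGAA and TTNNGNAA matches overlap each other. These matches describe the letters in the windows and say nothing of binding.

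Across all lungs with HDE against all lungs with saline, the HDE lungs had more Il1rn, Casp1 and Il1a transcript and less Il18r1 transcript, while the tests of Il1b, Il18, Il1r1, Il1rap and Il1r2 did not pass. Nlrp3 was called higher as well, but its counts exceeded background in 10 of 21 libraries, its estimate was 0.04 in run 2, and it was called in 5 of 12 other fits. Among the 6 members in the main test, the quasi-likelihood test of edgeR, adjusted by Benjamini-Hochberg over 388 genes, called 2 higher and 1 lower (adjusted p below 0.05), that is 3 of 6. Of the 388 genes, 39.4% were called higher, 10.1% lower and 49.5% in either direction. With no count minimum, 34.3% of 766 genes were called higher, 4.7% lower and 39% in either direction, and 2 of the 4 members under the minimum, Il1a and Nlrp3, were called higher. The median log2 fold change was 0.13 over the 6 members and 0.15 over the 388 genes, and 0.61 over the 4 members under the minimum and 0.43 over the 766 genes. The split of calls rests on the scaling: 79.7% of the 192 calls were higher, against 52.0% with TMM scaling, which moved the median of the 388 genes to -0.04. In whole lung RNA, a change in the share of the cells that make a transcript and a change of transcript per cell cannot be told apart.

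**Figure D1:**
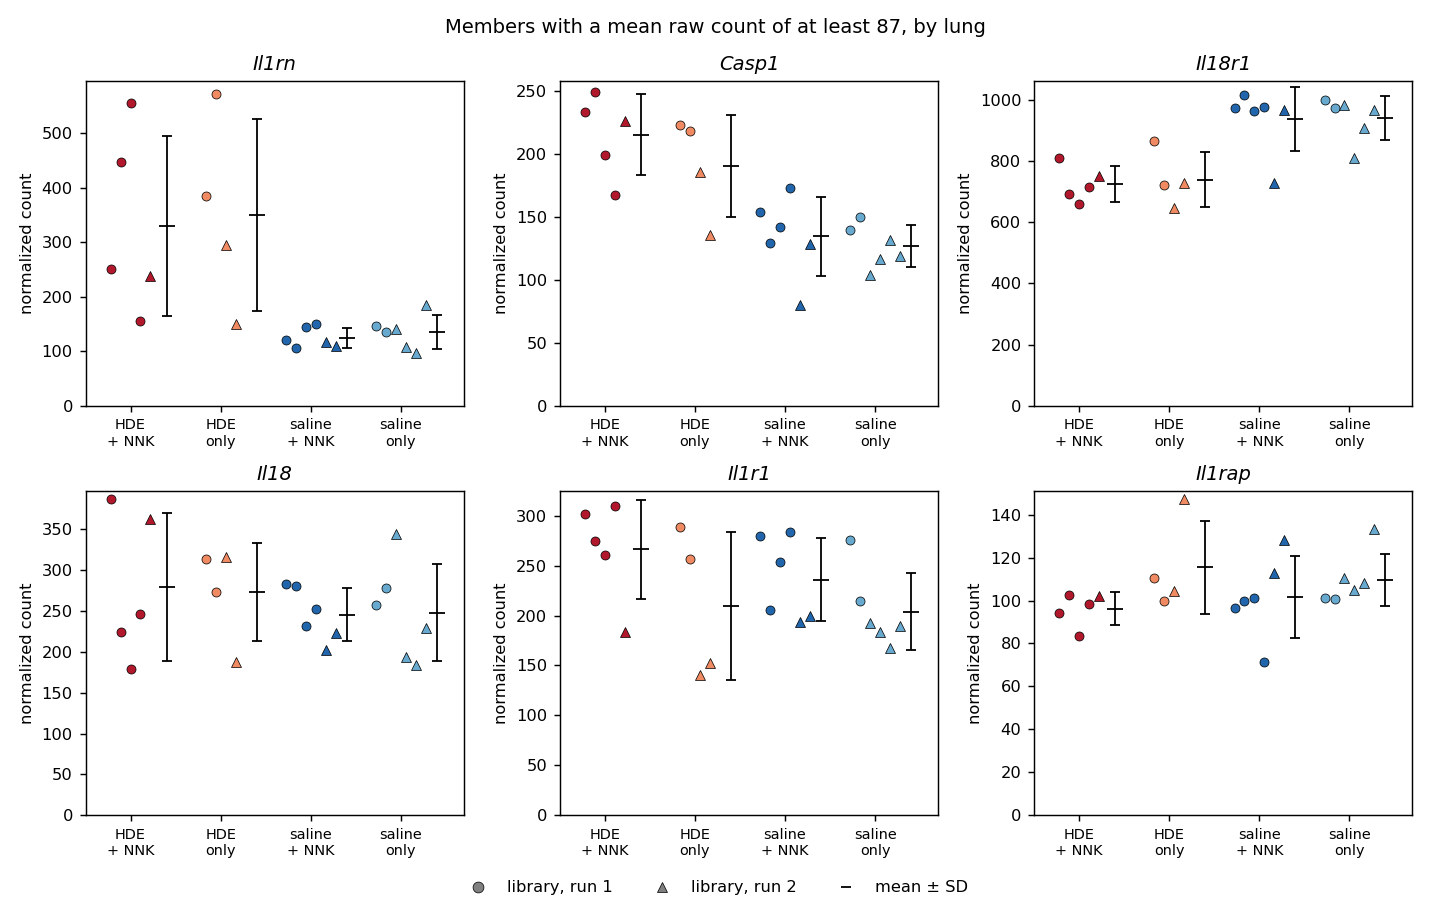
Normalized counts (y axis, counts scaled by 4 housekeeping genes) of the 6 members whose mean raw count reached 87, by group (x axis); each symbol is 1 lung, circles from run 1 and triangles from run 2, and bars give the mean ± SD. Il1rn and Casp1 sat higher and Il18r1 lower in the HDE groups, with overlap, whereas Il18, Il1r1 and Il1rap overlapped widely.

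Il1rn, which encodes the IL-1 receptor antagonist, had the largest log2 fold change of the 10 members over all HDE against all saline lungs. It stood at 251, 447, 555, 156 and 239 normalized counts in the HDE + NNK lungs and at 384, 572, 296 and 151 in the HDE only lungs. The saline + NNK lungs had 106, 119 and 150 (lowest, median, highest), and the saline only lungs 97.7, 139 and 186. Of the 9 HDE lungs, 7 exceeded every saline lung, and all 9 lay above the median of the saline lungs. The mean was 339 ± 160 in HDE lungs (SD, n = 9) and 130 ± 25.2 in saline lungs (SD, n = 12), a log2 fold change of 1.38 ± 0.21 (SE), or 2.61-fold (edgeR adjusted p = 1.06e-05). The spread among HDE lungs was the wider by far, with a coefficient of variation of 47.1%, against 19.3% among saline lungs. The HDE lungs that overlapped the saline range were HDE + NNK lane 11 of run 1 and HDE only lane 12 of run 2.

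The rise of Il1rn was called both without and with the carcinogen. HDE only lungs differed from saline only lungs by 1.35 ± 0.31 on the log2 scale (edgeR adjusted p = 0.0015), and HDE + NNK lungs from saline + NNK lungs by 1.41 ± 0.29 (edgeR adjusted p = 0.000515). The interaction was 0.06 ± 0.43, with an interval of -0.78 to 0.90, which leaves room for a sizeable difference in either direction. Within run 1 the HDE effect was 1.60 ± 0.28, and within run 2 it was 0.92 ± 0.27 (edgeR adjusted p = 0.000557 and 0.0251). In run 2 alone the rise was 0.76 without NNK and 1.08 with NNK, and neither was called. Run 2 held 1 HDE + NNK lung, so its value with NNK rests on an arm of 1. With positive control scaling the rise without NNK was not called (1.07, edgeR adjusted p = 0.0855).

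Casp1, the protease that cuts pro-IL-1 beta and pro-IL-18, rose to a smaller extent. It was 234, 250, 199, 168 and 226 normalized counts in the HDE + NNK lungs and 224, 218, 186 and 136 in the HDE only lungs. In the saline + NNK lungs the values were 80.4, 136 and 173, and in the saline only lungs 104, 125 and 150 (lowest, median, highest). Again 7 of 9 HDE lungs exceeded every saline lung, and the same 2 HDE libraries as for Il1rn did not. Means were 204 ± 36.0 and 131 ± 24.3 in HDE and saline lungs, a log2 fold change of 0.63 ± 0.13, or 1.55-fold (edgeR adjusted p = 0.00022). The effect was 0.58 ± 0.18 without NNK and 0.68 ± 0.17 with NNK (edgeR adjusted p = 0.0165 and 0.00297). Without NNK the call was lost when HDE only lane 10 or lane 12 of run 1 was left out (edgeR adjusted p = 0.0734 and 0.0598), and with TMM scaling, DESeq2's own size factors, the replicate block or run 2 alone (adjusted p = 0.107, 0.0909, 0.0753 and 0.167). With the positive control probes as the scale Casp1 was not called in any of these comparisons (0.35 ± 0.28 over all lungs, edgeR adjusted p = 0.399), which leaves the call without NNK in 11 of 16 other fits.

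Nlrp3, the sensor of the NLRP3 inflammasome, was counted close to background. Its raw counts lay between 6 and 54, and 10 of 21 libraries exceeded their own background limit: 3 of 5 HDE + NNK, 2 of 4 HDE only, 3 of 6 saline + NNK and 2 of 6 saline only libraries. Normalized counts were 40.5, 45.8, 35.8, 56.3 and 25.5 in the HDE + NNK lungs, and 73.6, 71.2, 17.2 and 10.0 in the HDE only lungs. The saline + NNK lungs had 16.5, 25.8 and 35.2, and the saline only lungs 14.8, 18.1 and 28.0 (lowest, median, highest). The HDE only lungs thus fell into a high pair from run 1 and a low pair from run 2. Means were 41.8 ± 22.4 in HDE lungs and 23.2 ± 6.69 in saline lungs. The log2 fold change with no count minimum was 0.85 ± 0.29 (edgeR adjusted p = 0.0186), and it was 1.12 ± 0.18 within run 1 and 0.04 ± 0.36 within run 2. Without HDE only lane 10 of run 1 it was 0.63 (edgeR adjusted p = 0.101), and without lane 12 of run 1 it was 0.69 (edgeR adjusted p = 0.0692). After the negative control mean was subtracted, the estimate was 1.29 ± 0.60 and was not called (edgeR adjusted p = 0.0978). Neither NNK stratum passed by itself, with 1.04 ± 0.42 without NNK and 0.67 ± 0.38 with NNK (edgeR adjusted p = 0.0827 and 0.201).

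**Figure D2:**
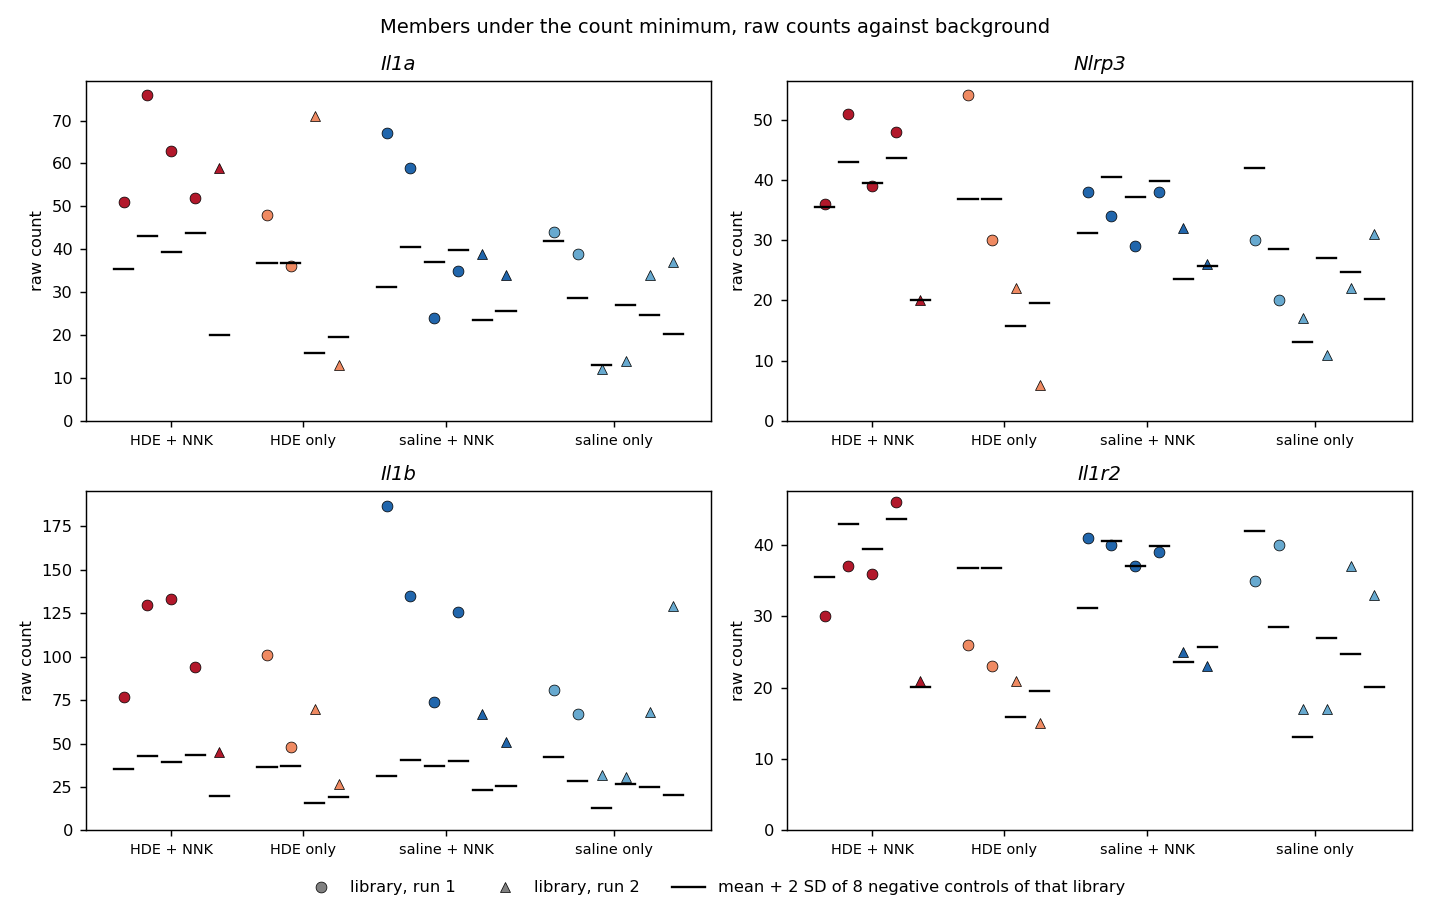
Raw counts (y axis) of the 4 members with a mean raw count under 87, each symbol 1 library ordered by group, run and lane (x axis), circles from run 1 and triangles from run 2; the black dash is that library's mean plus 2 SD of 8 negative controls. Il1b lay above the dash in 21 of 21 libraries, Il1a in 15, Nlrp3 in 10 and Il1r2 in 9.

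Among the ligands, Il1a rose, and the tests of Il1b and Il18 did not pass. Il1a, which encodes IL-1 alpha, an alarmin that is active without cleavage by caspase-1, had raw counts of 12 to 76 and exceeded the background limit in 15 of 21 libraries. Its normalized counts were 57.3, 68.3, 57.9, 61.0 and 75.3 in the HDE + NNK lungs and 65.4, 85.5, 55.4 and 21.8 in the HDE only lungs. The saline + NNK lungs had 20.1, 29.0 and 56.2, and the saline only lungs 18.8, 23.9 and 40.1 (lowest, median, highest). Of the 9 HDE lungs, 7 lay above every saline lung before background was subtracted. HDE only lane 11 of run 2 lay just under the highest saline lung, and HDE only lane 12 of run 2 lay well inside the saline range. The highest value, 85.5 in HDE only lane 12 of run 1, was a raw count of 36, under its background limit of 36.8. With the negative control mean subtracted, HDE lungs had 8.16, 33.9 and 61.5, and saline lungs 0, 13.4 and 38.0 (lowest, median, highest). The median HDE lung then lay below the highest saline lung. Means were 60.9 ± 17.6 in HDE lungs and 30.1 ± 11.5 in saline lungs. The log2 fold change with no count minimum was 1.00 ± 0.23, or 2.00-fold (edgeR adjusted p = 0.000933). It was 1.04 ± 0.33 without NNK and 0.95 ± 0.30 with NNK (edgeR adjusted p = 0.0237 and 0.0216). These were 1 of 4 members under the minimum in each stratum. Of the 766 genes, 21.1% were called higher, 2.09% lower and 23.2% in either direction without NNK, and 24% higher, 2.61% lower and 26.6% in either direction with NNK. Each of these calls was lost in several settings. Without NNK, Il1a was called in 7 of 12 other fits and not with TMM scaling, positive control scaling, background subtraction, DESeq2's own size factors or run 2 alone (adjusted p = 0.0958, 0.616, 0.179, 0.107 and 0.136). With NNK it was called in 8 of 12 and not with the first 4 of these (adjusted p = 0.0512, 0.732, 0.144 and 0.0659). Without NNK it was lost when HDE only lane 10 or lane 12 of run 1, or saline only lane 3, 4 or 6 of run 2, was left out (edgeR adjusted p = 0.0815, 0.132, 0.0501, 0.0523 and 0.0551). With NNK it was lost when saline + NNK lane 1 or lane 2 of run 2 was left out (edgeR adjusted p = 0.0543 and 0.0507).

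The rise of Il1a was also called within each run, at 0.81 ± 0.20 in run 1 and 1.31 ± 0.30 in run 2 (edgeR adjusted p = 0.00329 and 0.00595), and with the negative control mean subtracted, at 1.34 ± 0.47 (edgeR adjusted p = 0.027). It was not called with positive control scaling (0.64 ± 0.35, edgeR adjusted p = 0.25). Negative controls themselves stood higher in HDE lungs after the same scaling, at 25.2 ± 13.8 normalized counts in HDE lungs and 16.6 ± 6.20 in saline lungs (SD, n = 9 and 12), a log2 difference of 0.48. That difference was 0.68 in run 1 and 0.05 in run 2. The 287 genes with a mean raw count under 50 had a median log2 fold change of 0.63, and Il1a (1.00 ± 0.23) and Nlrp3 (0.85 ± 0.29) are among them. The part of the background in their values was not tested beyond the subtraction given here.

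Il1b, which encodes IL-1 beta, was above the background limit in all 21 libraries, and its exposure groups overlapped. Normalized counts were 86.5, 117, 122, 110 and 57.5 in the HDE + NNK lungs and 138, 114, 54.6 and 45.2 in the HDE only lungs. They were 34.6, 82.8 and 157 in the saline + NNK lungs, which held the highest value of all, and 41.6, 58.2 and 73.9 in the saline only lungs (lowest, median, highest). None of the HDE lungs exceeded every saline lung. The log2 fold change was 0.38 ± 0.25 with an interval of -0.11 to 0.86 (edgeR adjusted p = 0.215). Every HDE lung of run 1, at 86.5 to 138, stood above every HDE lung of run 2, at 45.2 to 57.5. Saline lungs had 62.5 to 157 in run 1 and 34.6 to 72.8 in run 2.

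Il18, which encodes a cytokine held ready as a precursor in epithelium and macrophages, was counted well above background in all 21 libraries. It was 387, 224, 178, 246 and 363 normalized counts in the HDE + NNK lungs and 313, 273, 316 and 188 in the HDE only lungs. The saline + NNK lungs had 202, 241 and 283, and the saline only lungs 183, 243 and 344 (lowest, median, highest). The lowest value over all lungs was in an HDE + NNK lung, and so was the highest, so that the exposure groups overlapped over nearly the whole range. The log2 fold change was 0.17 ± 0.15, with an interval of -0.12 to 0.45 (edgeR adjusted p = 0.365).

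Of the receptor chains, Il18r1, the ligand-binding chain for IL-18, fell in HDE lungs. It had 810, 692, 659, 717 and 751 normalized counts in the HDE + NNK lungs and 864, 722, 646 and 727 in the HDE only lungs. The saline + NNK lungs had 727, 970 and 1016, and the saline only lungs 808, 970 and 1000 (lowest, median, highest). Of the 9 HDE lungs, 6 lay below every saline lung, 1 of them by under 1 count, and all 9 lay below the saline median. Means were 732 ± 69.4 and 939 ± 85.5 in HDE and saline lungs, a log2 fold change of -0.36 ± 0.08, or 0.78-fold (edgeR adjusted p = 0.000417). The fall was -0.35 ± 0.11 without NNK and -0.37 ± 0.10 with NNK (edgeR adjusted p = 0.0176 and 0.00673). Without NNK it was not called once HDE only lane 11 of run 2 was left out (-0.29, edgeR adjusted p = 0.0766), nor with positive control scaling, in run 1 alone, in run 2 alone or without both low libraries (edgeR adjusted p = 0.48, 0.149, 0.091 and 0.0528), and it held in 13 of 17 other fits. With NNK it held in 15 of 17, and not with positive control scaling or in run 2 alone (edgeR adjusted p = 0.184 and 0.618), where 1 HDE + NNK lung was read. Within run 1, all 6 HDE lungs (659 to 864) lay below all 6 saline lungs (964 to 1016), and within run 2 the estimate was -0.30 ± 0.14 and was not called (edgeR adjusted p = 0.117).

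Il1r1 and Il1rap, whose products form the signalling receptor for IL-1, showed no detectable difference. Il1r1 averaged 241 ± 64.9 normalized counts in HDE lungs and 220 ± 41.6 in saline lungs, a log2 fold change of 0.10 ± 0.14 with an interval of -0.17 to 0.38 (edgeR adjusted p = 0.581). Il1rap averaged 105 ± 17.6 in HDE lungs and 106 ± 15.7 in saline lungs, at -0.01 ± 0.10 with an interval of -0.21 to 0.20 (edgeR adjusted p = 0.965). Il1r1 instead divided by run. The 12 lungs of run 1 had 205 to 310 normalized counts and the 9 lungs of run 2 had 140 to 200, with no overlap. In run 1, HDE lungs had 256 to 310 and saline lungs 205 to 284, whereas in run 2 HDE lungs had 140 to 184 and saline lungs 168 to 200. The HDE estimate for Il1r1 was of opposite sign in run 2 alone, at -0.21 ± 0.12 (edgeR adjusted p = 0.198).

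Il1r2, the decoy receptor, had 15 to 46 raw counts, with 9 of 21 libraries above the background limit: 2 HDE + NNK, 1 HDE only, 2 saline + NNK and 4 saline only libraries. It averaged 34.7 ± 12.6 normalized counts in HDE lungs and 27.7 ± 8.06 in saline lungs. The log2 fold change was 0.30 ± 0.24 (edgeR adjusted p = 0.301) and became -0.31 ± 0.53 after subtraction of the negative control mean (edgeR adjusted p = 0.71). A change of this decoy receptor was not detectable at this depth.

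**Figure D3:**
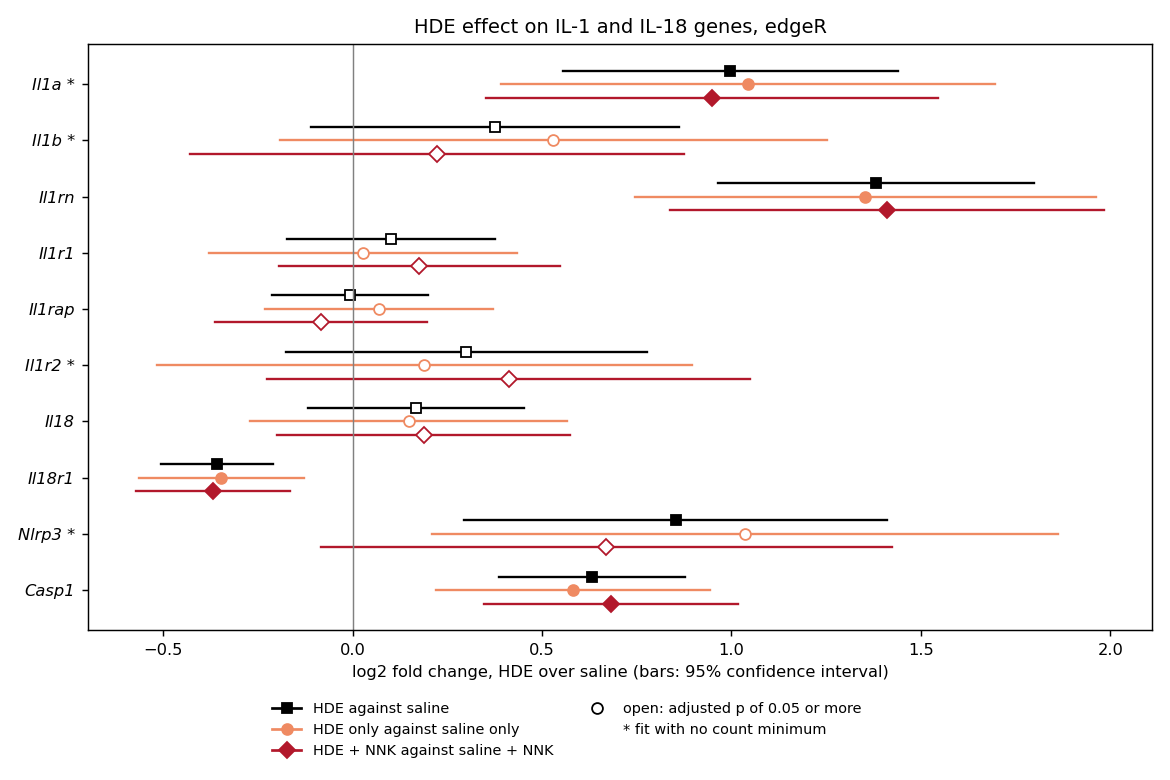
Log2 fold change of each member (x axis, HDE over saline; bars are 95% confidence intervals) over all lungs, without NNK and with NNK; filled symbols have an edgeR adjusted p under 0.05 and asterisks mark the 4 genes taken from the fit with no count minimum. Il1rn, Casp1, Il18r1 and Il1a were called in all 3 comparisons and Nlrp3 in the pooled comparison only.

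Counting the strata, HDE only against saline only called 2 of the 6 members higher (Il1rn and Casp1) and 1 lower (Il18r1), beside 30.2% higher, 4.38% lower and 34.5% in either direction of the 388 genes. HDE + NNK against saline + NNK called the same 3 members in the same directions, beside 29.9%, 5.67% and 35.6%. No member was called between lungs with and without NNK. HDE + NNK against HDE only gave 0 calls among the 6 members and 0% of the 388 genes (8 of them at an unadjusted p under 0.05), with log2 fold changes of -0.26 to 0.36 and none of the 6 at an unadjusted p under 0.05. Saline + NNK against saline only also gave 0 calls in edgeR, with 4 of the 388 genes at an unadjusted p under 0.05, -0.13 to 0.21 among the 6 members and none at an unadjusted p under 0.05. The 4 members under the minimum gave 0 calls and no unadjusted p under 0.05 in either NNK comparison, the highest estimate being Il1b in saline + NNK over saline only, at 0.50 ± 0.32 (edgeR adjusted p = 1.00). DESeq2 called 0 genes in the NNK comparisons. Interaction estimates for the 10 members were -0.37 to 0.22, and with groups of 4 to 6 lungs their intervals were wide, as for Nlrp3 at -1.49 to 0.76.

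The balance between the antagonist Il1rn and 1 of its ligands, Il1b, was read within each library, where the scaling cancels. The ratio of Il1rn to the other ligand, Il1a, which also rose, was not computed. Since probes differ in efficiency, only differences in a ratio between groups were interpreted. Il1rn was 2.90, 3.83, 4.54, 1.41 and 4.16 times Il1b in raw counts in the HDE + NNK lungs and 2.79, 5.02, 5.41 and 3.33 times in the HDE only lungs. It was between 0.775 and 3.37 times in the saline + NNK lungs and between 1.81 and 2.69 times in the saline only lungs. Of the 9 HDE lungs, 5 exceeded every saline lung, and HDE + NNK lane 11 of run 1 had the lowest ratio among the HDE lungs. The difference of the mean log2 ratio, taken within each NNK stratum and averaged over both, was 0.86, or 1.81-fold (exact permutation test within NNK strata, two-sided, 97020 relabellings, p = 0.00383, adjusted over 3 ratios p = 0.0115). It was 1.05 in run 1 alone and 0.63 in run 2 alone (exact permutation p = 0.00952 and 0.0222).

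The other ratios did not pass. The decoy to signalling receptor ratio, Il1r2 over Il1r1, averaged -2.83 ± 0.32 on the log2 scale in HDE lungs and -3.04 ± 0.40 in saline lungs (difference averaged over the NNK strata 0.22, exact permutation p = 0.18, adjusted p = 0.27). The ratio of Il18 over Il1b averaged 1.61 ± 0.75 in HDE lungs and 1.88 ± 0.57 in saline lungs (difference averaged over the NNK strata -0.26, exact permutation p = 0.363, adjusted p = 0.363).

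**Figure D4:**
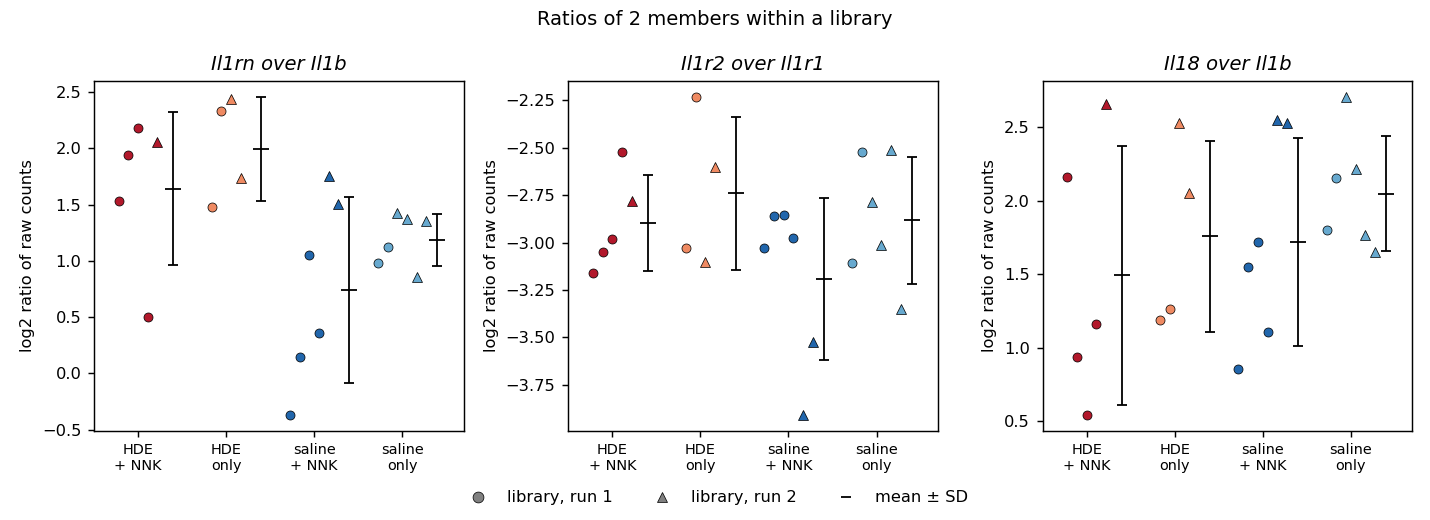
Log2 ratio of raw counts of 2 members in the same library (y axis), by group (x axis); each symbol is 1 lung, circles from run 1 and triangles from run 2, and bars give the mean ± SD. For Il1rn over Il1b, 5 of 9 HDE lungs lay above every saline lung; for the other ratios the HDE and saline lungs overlapped, with 1 HDE lung beyond all saline lungs in each.

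The receptor genes of this family lie in a row on chromosome 1, in the RefSeq order Il1r2, Il1r1, Il1rl2, Il1rl1, Il18r1 and Il18rap, and calls there ran in both directions. Il1rl1, which encodes the IL-33 receptor ST2, had 88.2 ± 18.2 normalized counts in HDE lungs and 38.9 ± 10.5 in saline lungs, with the lowest HDE lung at 61.3 and the highest saline lung at 49.2. Of the 388 genes in the main test, which leave out Il1rl1, 34 had every HDE lung above every saline lung and 0 the reverse (8.76%). The log2 fold change of Il1rl1 was 1.17 ± 0.18 (edgeR with no count minimum, adjusted p = 8.6e-06), against -0.36 for its neighbour Il18r1. Il1rl2, which encodes the IL-36 receptor, had 78.0 ± 21.0 and 50.0 ± 6.40 in HDE and saline lungs (0.64 ± 0.15, edgeR adjusted p = 0.00103). Il18rap, the signalling chain for IL-18, exceeded the background limit in 2 of 21 libraries, and its estimate was 0.36 ± 0.25 (edgeR adjusted p = 0.247). These genes have mean raw counts under 87 and were singled out after their values had been seen, as were the further genes named below that did not pass or are under the minimum.

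Of the other IL-1 family ligands and receptors, 5 of 17 listed genes were on the panel and only Sigirr, an inhibitory receptor of the family, entered the main test, at -0.18 ± 0.13 (edgeR adjusted p = 0.281). Of 8 other innate sensors and processing proteases on the panel, 3 were tested and 0 passed in edgeR (Nod1, Casp8 and Txnip, log2 fold changes of -0.08 to 0.18), with unadjusted p-values of 0.677, 0.0713 and 0.485. Below the minimum, 1 of 5 was called higher, beside 34.3% of the 766 genes of that fit: Pycard, the inflammasome adaptor ASC (1.08 ± 0.34, edgeR adjusted p = 0.0119), at 43.2 ± 18.9 normalized counts in HDE lungs and 19.9 ± 11.8 in saline lungs, above the background limit in 8 of 21 libraries.

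Of 22 genes of IL-1 receptor signalling on the panel, 20 were tested, 3 were higher and 0 lower, beside 39.4% higher and 10.1% lower over the 388 genes, with a median log2 fold change of 0.05 beside 0.15 over all 388 genes. Those called were Tnfaip3, which encodes the NF-kB inhibitor A20 (166 ± 37.3 normalized counts in HDE lungs and 111 ± 18.5 in saline lungs, 0.57 ± 0.13, edgeR adjusted p = 0.000601), Irak2, a receptor-associated kinase (0.39 ± 0.15, edgeR adjusted p = 0.0327), and Rel, an NF-kB subunit (0.31 ± 0.13, edgeR adjusted p = 0.0495). Myd88, the adaptor of the pathway, was at 0.24 ± 0.10 and did not pass (edgeR adjusted p = 0.0573). Irak3, an inhibitory member of the IRAK family under the count minimum, rose by 0.63 ± 0.16 (edgeR adjusted p = 0.00248). Of 18 panel genes known to be induced by IL-1, 4 were tested: Lcn2, an iron-binding antibacterial protein, rose (6763 ± 2441 normalized counts in HDE lungs and 1584 ± 309 in saline lungs, log2 2.08 ± 0.18, edgeR adjusted p = 4.88e-09), Icam1, an adhesion molecule, fell (-0.37 ± 0.10, edgeR adjusted p = 0.00362), and Ptgs2 and Vcam1 did not pass. The other 14 were under the minimum and 6 of them were called higher (Cxcl1, Cxcl2, Cxcl3, Cxcl5, Ccl2 and Csf2), beside 34.3% of the 766 genes of that fit. Cxcl3, a neutrophil chemoattractant singled out after its values were seen, reached 128 ± 47.6 in HDE lungs and 28.1 ± 12.5 in saline lungs. These genes also answer to many other stimuli.

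The genes whose pattern over the 21 libraries was most like that of Il1rn, by the mean absolute difference of centred log2 (normalized count + 1), were Cd14 (0.19) and Ly86 (0.24), against a median of 0.64 over 387 genes. Cd14, the lipopolysaccharide co-receptor of monocytes and macrophages, had 399 ± 138 normalized counts in HDE lungs and 140 ± 15.6 in saline lungs. For Casp1 the nearest were Vim (0.16) and H2-Ea-ps (0.16), with a median of 0.37, and for Il18r1 they were Alcam (0.12) and Tbp (0.14), with a median of 0.32. Alcam and Tbp were not themselves called in HDE over saline lungs (log2 fold changes -0.14 ± 0.07 and -0.16 ± 0.09, edgeR adjusted p = 0.116 and 0.172). Likeness here is a description over libraries that share groups, runs and depth.

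Cell type markers moved with the same contrast. Of 9 monocyte and macrophage markers tested, 8 were higher and 1, Marco, was lower in HDE lungs, and their summed normalized counts were 2462 to 6223 in HDE lungs and 1914 to 2628 in saline lungs. All 5 endothelial markers were lower, with sums of 4375 to 8441 in HDE lungs and 7578 to 10056 in saline lungs. Neutrophil markers summed to 603 to 1153 in HDE lungs and 397 to 819 in saline lungs, where S100a8 was the 1 marker in the main test and rose, and 2 of 8 markers, Elane and Camp, exceeded the background limit in no library. Both B cell markers tested rose, with sums of 387 to 1205 and 165 to 491 in HDE and saline lungs. The T cell marker Cd3g and the dendritic cell marker Itgax, each the only marker of its list in the main test, rose too. T cell sums were 243 to 574 and 177 to 314, and dendritic cell sums 191 to 592 and 183 to 296. Under the minimum, 1 of 7 neutrophil (Cxcr1), 2 of 3 B cell, 2 of 6 T cell and 0 of 3 dendritic cell markers were called higher. The share called higher over the 766 genes was 34.3%. Among the 3 dendritic cell markers, Ccr7 had a negative estimate (-0.13). NK cell markers, none in the main test, summed to 100 to 272 in HDE lungs and 95.4 to 257 in saline lungs. The 3 epithelial markers, of which Muc1 was higher, summed to 4053 to 5731 in HDE lungs and 3679 to 4536 in saline lungs. The 3 epithelial and 5 endothelial markers exceeded the background limit in every library. The part of these marker shifts in the values of Il1rn, Casp1, Il1a, Nlrp3 and Il18r1 was not tested.

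**Figure D5:**
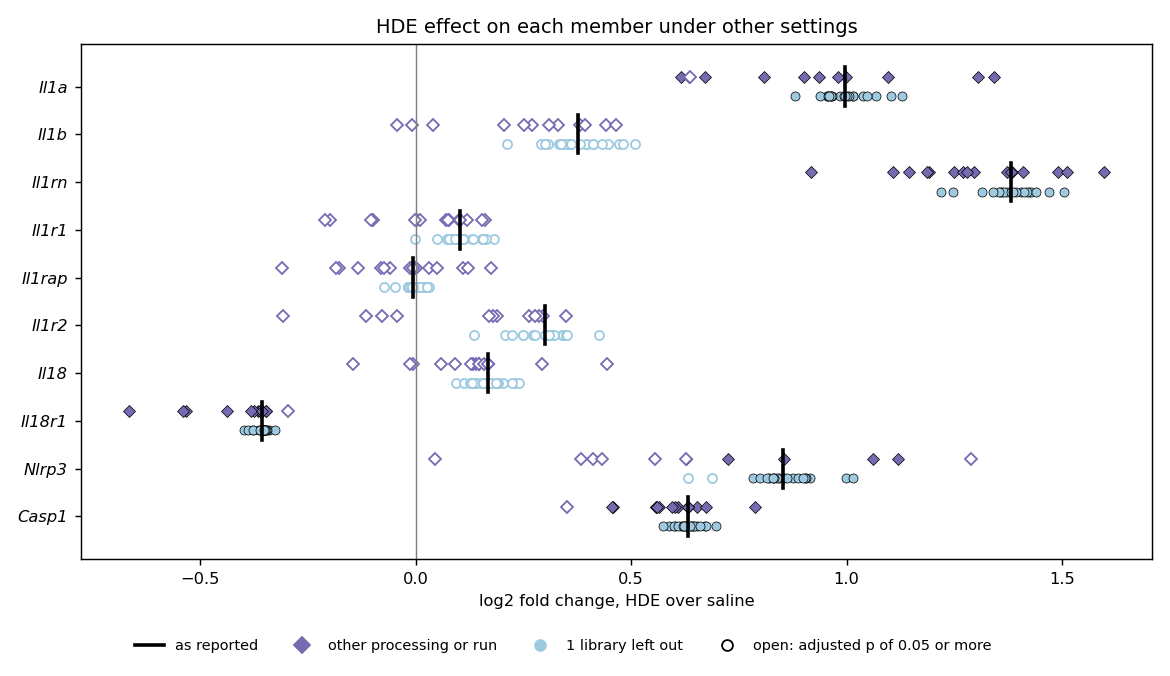
Log2 fold change of each member, HDE over saline (x axis), as reported (black line), under other scalings, filters, tools or single runs (diamonds) and with 1 library left out (circles); open symbols have an adjusted p of 0.05 or more. Il1rn stayed at 0.92 to 1.60 and was called throughout, whereas Nlrp3 ran between 0.04 and 1.29.

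Across these settings, the rise of Il1rn in HDE lungs over saline lungs was called in all 16 other fits that could test it and in all 21 fits with a library left out. Casp1 was called in 15 of 16 and 21 of 21, Il18r1 in 16 of 17 and 21 of 21, Il1a in 11 of 12 and 21 of 21, and Nlrp3 in 5 of 12 and 19 of 21. Il1b, Il18, Il1r1, Il1rap and Il1r2 were called in none.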

How the data were processed

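RNA (50 ng) of 21 left lungs was hybridised for 16 h with the mouse PanCancer Immune Profiling codeset and counted on an nCounter Sprint instrument, with no alignment, so no genome build applied. The authors deposited raw counts for 784 probes, and a further table of these counts with gene values below 87 raised to 87. The raw table was used, since the raised table hides the weak members. Columns of the raw table give the group but not the animal. Animals were not matched to these columns, so sex and replicate numbers were entered only with the raised table.

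Counts were tested with edgeR 4.0.16 (quasi-likelihood, R 4.3.3) on 388 genes, without the 4 scaling genes, with the scaling genes as size factors and 4 groups in 1 fit; SE is the log2 fold change over the root of F. A fit of 766 genes with no minimum served for Il1a, Il1b, Il1r2 and Nlrp3. P-values were adjusted by Benjamini-Hochberg over all genes of the fit. They set a group difference against the variation between libraries within groups. The main fit had no term for run or sex, so that variation also holds differences of run and sex. Ratios were tested by exact permutation (scipy 1.17.1, Python 3.11.15). Alternatives used TMM, all housekeeping genes, positive controls, background subtraction, other filters, limma 3.58.1, DESeq2 1.42.0, run and single libraries. The fit was also run on simulated counts drawn from its own model, with no effect of run or sex and no added background. That check cannot speak to those features. The 10 members and all lists were chosen with earlier results of these data known. The genes named were the members, the scaling genes, up to 4 passing genes of each list with the smallest adjusted p, and the 2 tested genes most alike to each member that passed; others are marked as chosen after their values were seen.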

Additional observations from a re-analysis of the deposited data

Results flagged for a closer look

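In 40 groups of member values, 1 library stood apart by Dixon's test in 3, where chance alone gives about 1 in 20. Il1rap had 133 normalized counts in saline only lane 6 of run 2, the highest of its group, against 110 for the nearest and 101 for the lowest library. Il1r2 had 53.9 in HDE + NNK lane 11 of run 1, the highest of its group, against 33.7 for the nearest and 26.8 for the lowest library. Il18r1 had 727 in saline + NNK lane 1 of run 2, the lowest of its group, against 964 for the nearest and 1016 for the highest library.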

How the results depend on the processing

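Of the 6 members over the minimum, the count called higher in HDE over saline lungs (2) became 1 with positive control scaling and 0 where every library had to reach 87 counts, since Il1rn and Casp1 were then not among the genes tested; the count called lower (1) became 0 in run 2 alone. For HDE only against saline only, the count called higher (2) became 1 with TMM scaling, with DESeq2's own size factors and with the replicate block on the raised table, and 0 with positive control scaling, with 87 in every library and in run 2 alone; with single libraries left out it was 1 to 2, the 1 being without HDE only lane 10 or lane 12 of run 1. The count called lower (1) became 0 with positive control scaling, in run 1 alone, in run 2 alone, and without HDE only lane 12 and saline only lane 3 of run 2; with single libraries left out it was 0 to 1, the 0 being without HDE only lane 11 of run 2. For HDE + NNK against saline + NNK, the count higher (2) became 1 with positive control scaling and in run 2 alone and 0 with 87 in every library, and the count lower (1) became 0 with positive control scaling and in run 2 alone; run 2 held 1 HDE + NNK library, assumed there to vary like the other groups. Of the 4 members under the minimum, the count called (2) became 1 with TMM scaling, background subtraction, DESeq2's own size factors, limma at a pseudocount of 1 or 20 and run 2 alone, 0 with positive control scaling, and 1 to 2 with single libraries left out. Except where a filter left fewer genes or a run fewer libraries, the cause was not tested.

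Members that were not called changed sign in HDE over saline lungs. The log2 fold change of Il1b was -0.0097 with TMM and -0.043 with DESeq2's own size factors. That of Il1r1 was -0.10 with TMM, -0.20 with positive controls, -0.10 with DESeq2's own size factors, -0.0028 with run as a term and -0.21 in run 2 alone, and -0.0017 to 0.18 with single libraries left out. That of Il1rap was 0.0013 and 0.00094 with limma at pseudocounts of 1 and 20, 0.11 on the raised table, 0.17 there with the replicate block, 0.12 there with sex as a term, 0.031 with run as a term and 0.050 in run 1 alone, and -0.075 to 0.031 with single libraries left out. That of Il1r2 was -0.078 with TMM, -0.045 with positive controls, -0.31 with background subtraction and -0.12 with DESeq2's own size factors. That of Il18 was -0.0074 with TMM, -0.15 with positive controls and -0.014 with DESeq2's own size factors. Nlrp3 in HDE only over saline only lungs was -0.42 in run 2 alone, the ratio of Il1r2 over Il1r1 was -0.25 with background subtraction, and the ratio of Il18 over Il1b was 0.16 in run 2 alone.

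Over all genes, calls numbered 153 higher and 39 lower, against 117 and 108 with TMM, 55 and 31 with positive controls, 139 and 71 with all housekeeping genes, 120 and 113 with DESeq2's own size factors, 83 and 29 of 218 with 87 in every library, 161 and 18 in run 1 alone, and 91 and 54 in run 2 alone; the share of calls that were higher was 79.7%, 52.0%, 64.0%, 66.2%, 51.5%, 74.1%, 89.9% and 62.8%. With no minimum, 263 higher and 36 lower became 153 and 173 with TMM. Same-numbered animals of different groups correlated over 0.1 in 15 of 28 pairs (-0.225 to 0.511). Differently numbered animals were not compared, so these values cannot tell whether replicate numbers pair the animals. With the replicate block, Il1rn was 1.27, Casp1 0.56 and Il18r1 -0.36 in HDE over saline lungs, all called, while Casp1 without NNK was 0.45 and not called (adjusted p = 0.0753, edgeR). Nlrp3, Il1r2 and in part Il1a lie near the negative controls, which limits what these counts can show.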
